A study of Homo sapiens with 36 samples.

Results

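The SOX genes that human neural stem cells (hNSC) express were followed through 6 CRISPR treatments of MEIS1 and MEIS2. The members are SOX1, SOX2, SOX3, SOX4, SOX5, SOX6, SOX8, SOX9, SOX11 and SOX21, taken by name from a count table of 28516 genes, and all 10 passed the filter on low counts. The cells were a commercially available hNSC line, so every group rests on cells of the same source. In MEIS1-OE and MEIS2-OE the target gene was switched on from its own promoter by CRISPR activation, in which lentiviruses deliver a guide RNA with MS2 hairpins, a catalytically dead Cas9 fused to VP64 (dCas9-VP64) and the MPH activator complex. In MEIS1-KO and MEIS2-KO the target gene was cut by Cas9 from a lentiCRISPRv2 vector, with a mix of guides for each gene, and the cells were not cloned, so a knockout group is a mixed population. The control groups ctrl-OE and ctrl-KO carried non-targeting guides in the activation and in the knockout system, respectively. Each of the 6 groups held 6 RNA-seq libraries harvested 48 h after infection. The samples were imaged and extracted separately, but no source used here states whether those of a group were infected on separate occasions, so the p-values measure only the spread between these parallel samples of the line, which may be partly technical.

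SOX proteins bind DNA through a high-mobility-group (HMG) box and act with partner factors such as POU proteins. In the neural tube the SOXB1 factors SOX1, SOX2 and SOX3 keep progenitors undifferentiated, while the SOXB2 factor SOX21 acts against them and promotes differentiation. The SOXC factors SOX4 and SOX11 drive neuronal genes in cells leaving the progenitor state, the SOXD factors SOX5 and SOX6 lack a transactivation domain and modulate other SOX proteins, and the SOXE factors SOX8 and SOX9 act in glial specification. MEIS1 and MEIS2 are TALE homeodomain proteins that bind DNA together with other factors, SOX proteins being candidate partners, and the comparisons ask whether the transcripts of the SOX genes themselves change when MEIS1 or MEIS2 is raised or lowered.

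Libraries held 15429985 to 22940493 counts on genes, with a median of 20324720. Levels are given as CPM, the counts of a gene scaled to the library total after adjustment by edgeR's TMM normalization factor. A CPM is therefore not the plain share of a library's counts, and the factors enter every comparison of levels between groups. Fold changes are given on the log2 scale with their standard error (SE). MEIS1 averaged 310.2 CPM in MEIS1-OE against 17.8 in ctrl-OE and 8.96 in MEIS1-KO against 25.7 in ctrl-KO. MEIS2 averaged 824 CPM in MEIS2-OE against 22.6 in ctrl-OE and 12.1 in MEIS2-KO against 25.8 in ctrl-KO, and no targeted library overlapped its controls. Of neural stem cell markers, mean levels were 909 to 1734 CPM for NES and 1992 to 3065 CPM for VIM in the 6 groups, and group means were at most 0.33 CPM for the astrocyte marker GFAP and 0.12 for the neuronal marker STMN2. Of the pluripotent stem cell markers, POU5F1 reached at most 0.16 CPM, while LIN28A, which early neural progenitors also express, averaged 296.5 to 492.1 CPM and DPPA4 110.9 to 121.5 CPM. In ctrl-OE, replicate 6 stood apart, with a summed CPM of the 10 SOX genes of 629.5 against 412 to 482.6 in the other libraries of its group. Its sum of 5 neural crest and mesenchyme markers was 234.5 CPM against 145.5 to 192.1. The sum of neural stem cell markers (SOX1 and SOX2 included) was also highest there, at 3761 CPM against 2900 to 3278. The same held for other SOX genes and for listed targets of SOX2, of the SOXC and of the SOXE factors. Sums of neuron, astrocyte, oligodendrocyte lineage and pluripotent stem cell markers lay inside the range of the other ctrl-OE libraries. Calls and medians of SOX genes and gene lists that rest on ctrl-OE are therefore given with and without this library. Other libraries lay as far from their groups by chi-square per degree of freedom between pairs of libraries. This was 14.3 to 28.3 for ctrl-OE replicate 6, 19.5 to 28.8 for MEIS1-OE replicate 3 and 11.8 to 36.04 for MEIS1-KO replicate 6. The latter libraries were left out only in the checks that dropped single libraries or replicate numbers.

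SOX2 is a gene without introns at chr3:181429713-181432224 on the plus strand (GRCh37), inside the long non-coding gene SOX2-OT. SOX1 (chr13:112721463-112726020, plus strand), SOX3 (chrX:139585150-139587234, minus strand), SOX4 (chr6:21593982-21598850, plus strand), SOX11 (chr2:5832516-5841517, plus strand) and SOX21 (chr13:95361876-95364799, minus strand) also have a lone exon. SOX5 (chr12:23682438-24715478, minus strand) and SOX6 (chr11:15987995-16761138, minus strand) are long genes with 23 and 19 annotated transcripts, and SOX8 (chr16:1031770-1036979, plus strand) and SOX9 (chr17:70117161-70122557, plus strand) have 3 exons. The positions come from a GRCh37 gene annotation matched by symbol.

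The hexamer TGACAG, the core letters that MEIS homeodomains recognise, was searched on both strands in the 250 bases before each annotated gene start. It was present in 4 of the 11 promoters of the 7 members with an entry, namely those of SOX2, SOX3 and SOX21 and 1 of the 5 of SOX6, beside 13.03% of 35116 promoters in all. The promoters of SOX2, SOX3 and SOX21 are shown because these SOXB genes hold the hexamer in their only entry. Sequences are from RefSeq (GRCh38.p14), written 5′ to 3′ on the strand of the gene, at chr3:181711675-181711924 (plus strand) for SOX2, chrX:140505070-140505319 (minus strand) for SOX3 and chr13:94712546-94712795 (minus strand) for SOX21, and the capitals mark TGACAG or its reverse complement CTGTCA. A match in these letters is a description of the sequence and not a bound site.
SOX2: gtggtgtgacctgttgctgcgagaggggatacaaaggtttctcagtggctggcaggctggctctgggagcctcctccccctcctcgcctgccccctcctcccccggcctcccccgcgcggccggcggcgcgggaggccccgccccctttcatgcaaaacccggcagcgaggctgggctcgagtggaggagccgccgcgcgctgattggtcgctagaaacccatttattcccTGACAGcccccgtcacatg
SOX3: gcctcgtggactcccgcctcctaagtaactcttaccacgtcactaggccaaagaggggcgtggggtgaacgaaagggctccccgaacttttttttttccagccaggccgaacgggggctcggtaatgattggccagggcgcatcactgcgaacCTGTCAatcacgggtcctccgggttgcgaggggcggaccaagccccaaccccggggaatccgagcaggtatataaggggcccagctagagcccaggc
SOX21: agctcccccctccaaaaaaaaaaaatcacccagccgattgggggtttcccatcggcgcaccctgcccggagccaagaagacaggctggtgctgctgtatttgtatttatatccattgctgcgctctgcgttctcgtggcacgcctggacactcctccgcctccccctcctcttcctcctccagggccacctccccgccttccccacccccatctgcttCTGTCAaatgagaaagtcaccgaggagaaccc

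The levels of the SOX genes were ordered per kilobase of merged exons, since only this scale compares genes of different length. In ctrl-KO, SOX2 came first at 119.6 ± 5.44 CPM per kilobase (SD, n = 6), before SOX4 at 42.0 ± 2.04. SOX21 at 31.1 ± 2.60 and SOX11 at 28.9 ± 1.06 followed and did not differ from each other beyond their spread, and SOX1 stood at 22.8 ± 0.556. Below a wide gap came SOX9 at 5.36 ± 0.860 and SOX3 at 4.14 ± 0.738, again not apart beyond their spread, then SOX5 at 3.04 ± 0.145, SOX8 at 2.38 ± 0.276 and SOX6 at 0.342 ± 0.045. The place of SOX5 depends on the length taken for it: per kilobase of its longest transcript it stood at 4.85 ± 0.231, above SOX3. SOX2 thus supplied most of the SOXB1 transcript, with a mean share of 81.6% to 85.8% in the 6 groups.

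In ctrl-OE the order was different. SOX2 again came first at 45.5 ± 10.7 CPM per kilobase (SD, n = 6), before SOX4 at 21.6 ± 2.91 and SOX11 at 14.4 ± 1.73. SOX9 at 8.47 ± 1.42, SOX1 at 7.86 ± 1.81 and SOX21 at 7.21 ± 3.64 came next and did not differ beyond their spread. SOX8 at 3.75 ± 0.527 ranked above SOX3 at 1.89 ± 1.30 and SOX5 at 1.39 ± 0.114, which overlapped in their spread, and SOX6 was last at 0.243 ± 0.0128. Per kilobase of the longest transcript, SOX5 stood at 2.21 ± 0.181 here, above SOX3. Without replicate 6 the means were 41.5 for SOX2, 8.67 for SOX9, 7.21 for SOX1 and 5.81 for SOX21.

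**Figure D1:**
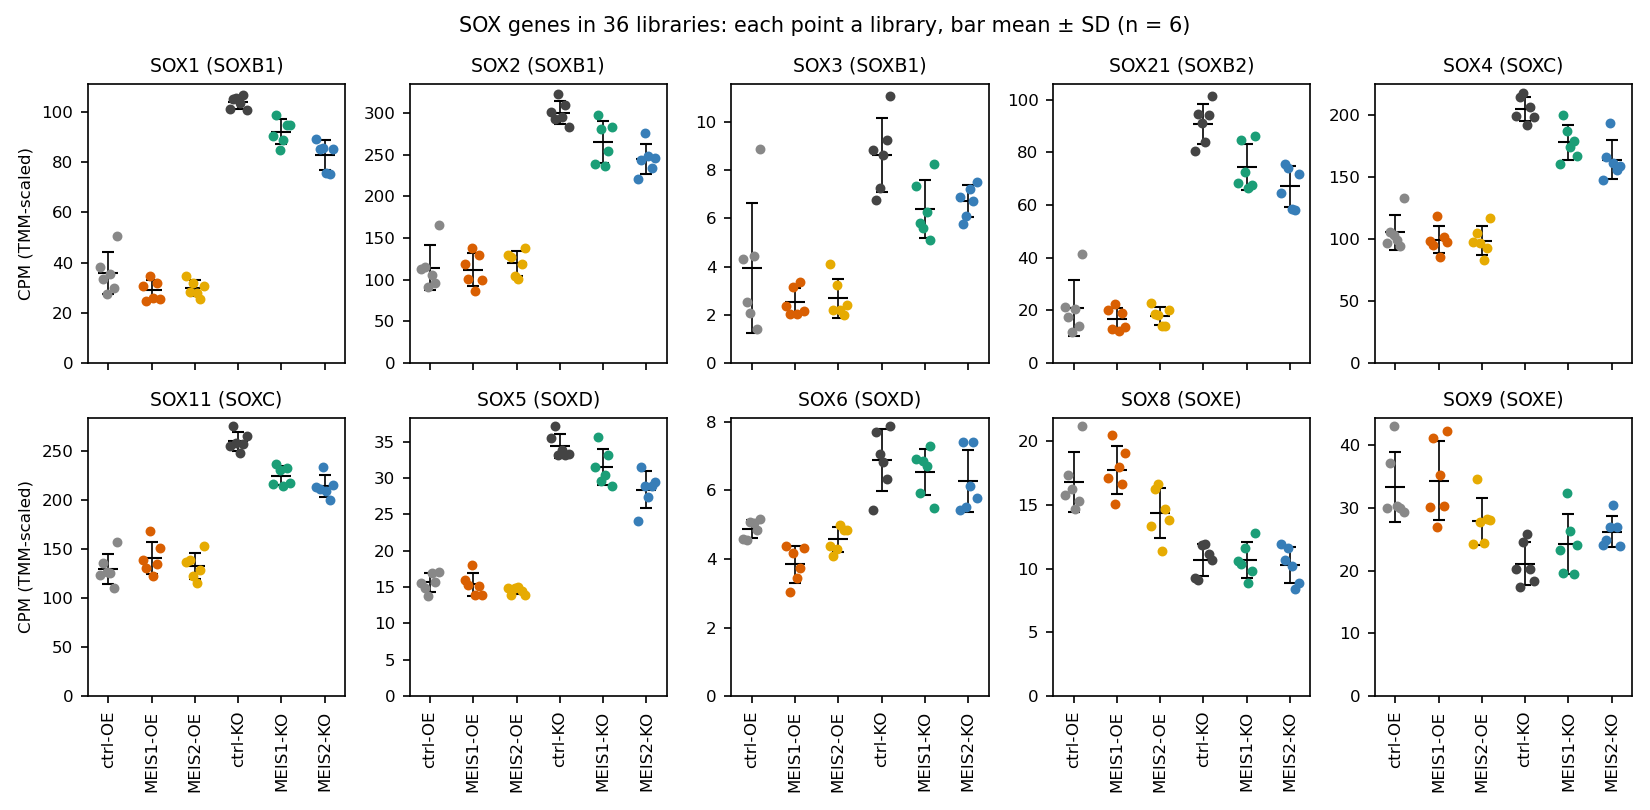
Level of each of the 10 SOX genes in CPM (vertical axis, a separate scale from 0 for each gene) in the 6 groups (horizontal axis); points are libraries, and bars mark the mean ± SD of 6 libraries. SOX1, SOX2, SOX4, SOX5, SOX11 and SOX21 sit higher in all 18 libraries of the knockout system than in those of the activation system, while SOX8 and SOX9 have their higher means in the activation system.

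The largest differences among the SOX genes lay between the control groups, not between a MEIS treatment and its control. Progenitor, neuronal and SOXD genes were lower in ctrl-OE than in ctrl-KO, and the glial SOXE genes SOX8 and SOX9 were higher. By edgeR's quasi-likelihood test, with p-values adjusted by Benjamini and Hochberg over 19689 genes and called under 0.05, all 10 SOX genes differed, 8 lower and 2 higher, beside 51.4% of all genes tested (23.9% lower and 27.5% higher). The median log2 difference of the 10 was -1.07, and that of all genes 0.05. Without ctrl-OE replicate 6 all 10 were again called, 8 lower and 2 higher, with a median of -1.11. The groups did not overlap for 7 lower and 2 higher SOX genes, beside 16.0% and 15.8% of all genes. The activation and knockout systems differ in their vectors, in the number of lentiviruses and in the Cas9 protein, and these cannot be told apart in this comparison. Neural stem cell markers moved with the SOX genes: 7 of 8 (SOX1 and SOX2 included) were lower in ctrl-OE with a median of -0.80, and 8 of 8 with a median of -0.88 without replicate 6. Among them were NES (-0.69), an intermediate filament of progenitors, and the RNA-binding protein gene MSI1 (-0.80). The sum of the list without SOX1 and SOX2 had a median of 3002 CPM in ctrl-OE and 4191 CPM in ctrl-KO, and its part in the SOX differences was not tested. In these bulk libraries, fewer cells of a type and less RNA per cell cannot be told apart either.

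Among the progenitor factors, SOX21, the SOXB2 member, lay furthest apart. Its lowest, median and highest levels were 11.7, 19.1 and 41.4 CPM in ctrl-OE and 80.5, 92.6 and 101.2 CPM in ctrl-KO. No ctrl-OE library reached a ctrl-KO library, although replicate 6 lay at 41.4 CPM against at most 21.2 in the other ctrl-OE libraries. The log2 difference was -2.11 (SE 0.18, edgeR adjusted p = 8.23e-13), and -2.42 without replicate 6.

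SOX2, which sustains neural stem cell self-renewal, ranged from 90.7 over a median of 109.4 to 165.7 CPM in ctrl-OE and from 283.2 over 298.0 to 322.1 CPM in ctrl-KO. The highest ctrl-OE library, replicate 6, still lay far below every ctrl-KO library, and the log2 difference was -1.39 (SE 0.11, edgeR adjusted p = 3.49e-14) with and -1.53 without it. SOX1, the SOXB1 gene most restricted to the neural plate, ranged from 27.3 over 34.5 to 50.6 CPM in ctrl-OE and from 101 over 104.4 to 106.7 CPM in ctrl-KO. These groups did not overlap, with a log2 difference of -1.54 (SE 0.09, edgeR adjusted p = 8.86e-17), and -1.66 without replicate 6. SOX3, the weakest SOXB1 gene, ranged from 1.39 over 3.42 to 8.86 CPM in ctrl-OE and from 6.75 over 8.75 to 11.1 CPM in ctrl-KO. Here the groups overlapped through replicate 6 alone, the other 5 ctrl-OE libraries lying below all ctrl-KO libraries. The log2 difference was -1.15 (SE 0.23, edgeR adjusted p = 5.81e-05), and -1.56 without that library.

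The SOXC pair, which activates neuronal genes, was lower in ctrl-OE by about the same amount in both genes. SOX4 ranged from 94.6 over 101.2 to 133.1 CPM in ctrl-OE and from 192.2 over 202.7 to 217.7 CPM in ctrl-KO. SOX11 ranged from 110.1 over 126 to 156.9 CPM in ctrl-OE and from 248.3 over 257.3 to 275.7 CPM in ctrl-KO. Neither gene had overlapping groups. The log2 differences were -0.96 (SE 0.08, edgeR adjusted p = 2.12e-13) for SOX4 and -1.002 (SE 0.07, edgeR adjusted p = 1.33e-15) for SOX11, and without replicate 6 they were -1.03 and -1.06.

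The SOXD genes differed from each other in size. SOX5 ranged from 13.7 over 15.6 to 17.1 CPM in ctrl-OE and from 33.1 over 33.5 to 37.1 CPM in ctrl-KO, with a log2 difference of -1.13 (SE 0.07, edgeR adjusted p = 1.86e-17). SOX6 ranged from 4.56 over 4.94 to 5.16 CPM in ctrl-OE and from 5.44 over 6.94 to 7.87 CPM in ctrl-KO, with -0.50 (SE 0.10, edgeR adjusted p = 3.85e-05). The groups of both genes were apart, those of SOX6 by a narrow margin, and without replicate 6 the log2 differences were -1.16 and -0.51.

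The SOXE genes went the other way. SOX9, which starts gliogenesis, ranged from 29.3 over 30.1 to 43.0 CPM in ctrl-OE and from 17.3 over 20.3 to 25.8 CPM in ctrl-KO. SOX8, a related SOXE factor of the oligodendrocyte lineage, ranged from 14.7 over 16.0 to 21.2 CPM in ctrl-OE and from 9.11 over 10.9 to 11.9 CPM in ctrl-KO. All ctrl-OE libraries lay above all ctrl-KO libraries for both genes. The log2 differences were 0.66 (SE 0.12, edgeR adjusted p = 1.69e-05) for SOX9 and 0.65 (SE 0.10, edgeR adjusted p = 1.21e-06) for SOX8, and without replicate 6 they were 0.70 and 0.58. Markers of differentiated glia stayed low beside them: GFAP averaged at most 0.33 CPM in any group, and the astrocyte markers summed to 1.93 to 6.24 CPM over all libraries.

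The SOX2-OT transcript moved with SOX2 between the controls. It ranged from 11.1 over 12.8 to 17.4 CPM in ctrl-OE and from 25.4 over 28.6 to 30.1 CPM in ctrl-KO, a log2 difference of -1.05 (edgeR adjusted p = 2.17e-10), and -1.13 without replicate 6. SOX2-OT lies on the same strand as SOX2 and spans it, so reads of the shared stretch may be counted for either gene or for none.

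**Figure D2:**
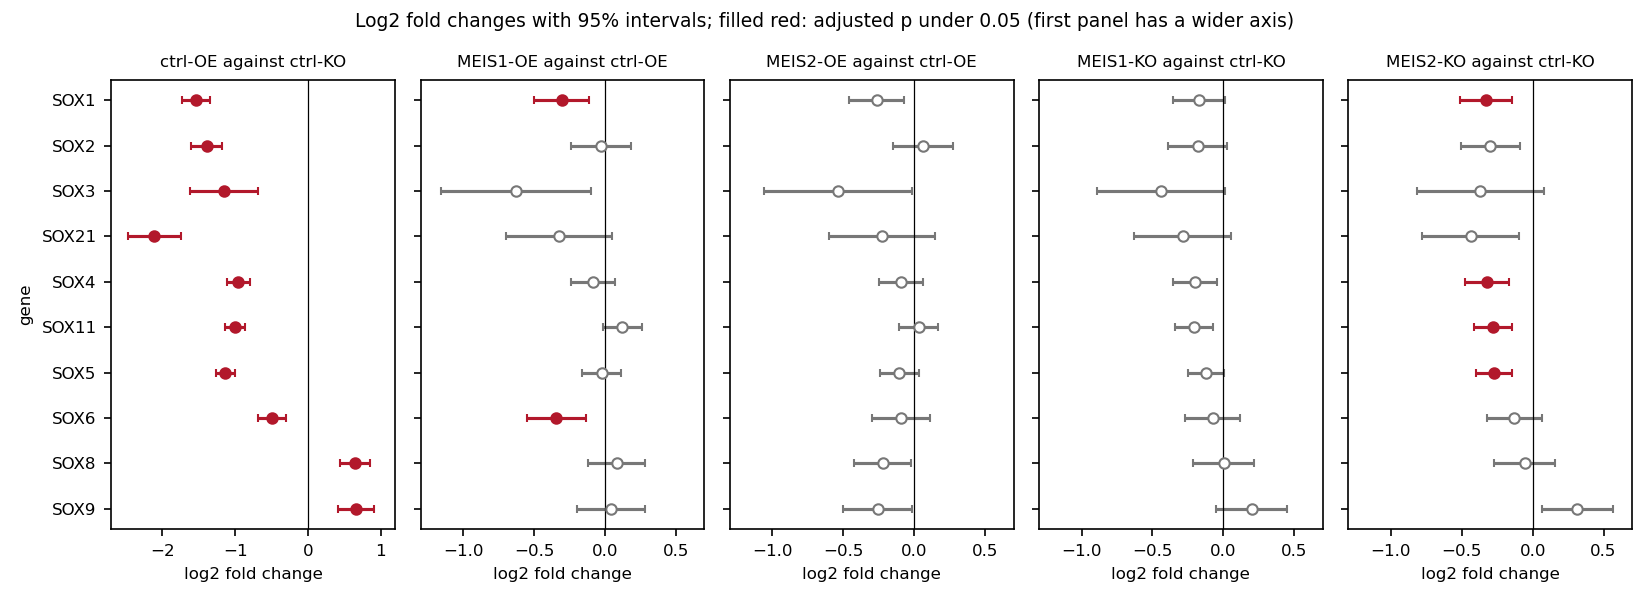
Log2 fold change (horizontal axis) of the 10 SOX genes (vertical axis) in 5 comparisons, as edgeR estimates with 95% intervals, with filled red points where the adjusted p is under 0.05 and a wider axis for ctrl-OE against ctrl-KO. The 4 comparisons of a MEIS treatment with its control stay between -0.63 and 0.32, while ctrl-OE against ctrl-KO runs from -2.11 for SOX21 to 0.66 for SOX9.

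Knockout of MEIS2 was the treatment with the most SOX genes called, all lower. SOX1, SOX4, SOX5 and SOX11 fell by 0.27 to 0.33 on the log2 scale, which joins a progenitor factor, both SOXC factors and a SOXD factor. These 4 of 10 stand beside 10.0% of all genes called in this comparison and 5.98% called lower. The median log2 fold change of the 10 SOX genes was -0.29, and that of all genes -0.01. The fold changes of 9 of 10 were negative, and 7 of 10 had an unadjusted p under 0.05, beside 23.2% of all genes. None also passed an absolute log2 fold change of 0.58, which 1.58% of all genes did. The summed level of the 10 genes had a median of 843.1 CPM in MEIS2-KO and 1041 CPM in ctrl-KO, so the knockout held 81.0% of the control level.

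SOX11 ranged from 200.2 over a median of 212.3 to 234.0 CPM in MEIS2-KO, all libraries lying below the ctrl-KO range given above, and its log2 fold change was -0.28 (SE 0.07, edgeR adjusted p = 0.00511). SOX4, its SOXC relative, ranged from 147.8 over 160.2 to 193.1 CPM, with 5 of 6 libraries below all controls, and fell by 0.32 (SE 0.08, edgeR adjusted p = 0.00538). SOX5 ranged from 24.0 over 28.9 to 31.5 CPM, below all controls, and fell by 0.27 (SE 0.06, edgeR adjusted p = 0.0045). The neural plate gene SOX1 ranged from 75.2 over 85.2 to 89.3 CPM, below all controls, and fell by 0.33 (SE 0.09, edgeR adjusted p = 0.0159).

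SOX2 and SOX21 were also apart from the controls in every MEIS2-KO library without passing the test. SOX2 ranged from 220.8 over 244.3 to 275.4 CPM, with a log2 fold change of -0.30 (SE 0.10, edgeR adjusted p = 0.0585). SOX21 ranged from 58.2 over 68.2 to 75.8 CPM, with -0.44 (SE 0.17, edgeR adjusted p = 0.0965). In all, 5 SOX genes (SOX1, SOX2, SOX5, SOX11 and SOX21) lay lower without overlap, beside 4.05% of all genes. Without ctrl-OE replicate 6, which is in neither group but shares the filter, the scaling and the estimate of the spread, SOX2 (edgeR adjusted p = 0.0244) and SOX21 (edgeR adjusted p = 0.0215) passed as well, which made 6 called beside 10.8% of all genes. When only the MEIS2-KO and ctrl-KO libraries were fitted, 8 were called beside 12.6%, namely SOX1, SOX2, SOX3, SOX4, SOX5, SOX11 and SOX21 lower and SOX9 higher. In the other direction, SOX1 lost its call without replicate number 2, 4 or 5 (edgeR adjusted p up to 0.0844) and SOX5 without number 1 (edgeR adjusted p = 0.0548), and the count went down to 3.

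The remaining members of the MEIS2-KO comparison did not pass. SOX9, with 23.9 over 25.9 to 30.3 CPM, was the only SOX gene with a positive estimate, of 0.32 (SE 0.12, edgeR adjusted p = 0.102), and 3 of its 6 libraries lay above all controls. SOX3 ranged from 5.78 to 7.51 CPM with -0.37 (edgeR adjusted p = 0.328), SOX6 from 5.43 to 7.41 CPM with -0.13, and SOX8 from 8.37 to 11.9 CPM with -0.06, and all of these overlapped the controls.

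The guide sequences of the knockouts were set against the SOX loci. Of the candidate off-target sites that the study listed for the knockout guides, 4 lay within 100 kb of a member, and each differed from its guide at 4 positions. They are shown because SOX5 fell in MEIS2-KO and has a candidate site of a MEIS2 guide nearby. Whether these sites were cut was not tested. The lines give the guide first, with its PAM in capitals, and then the sites in the genome (GRCh37, 5′ to 3′ on the strand of the match), with capitals for bases that differ from the guide.
MEIS2-g5 guide: gttctgatgtcaggataccaAGG
SOX5 site of MEIS2-g5: gttctgaGAAcaggaGaccaagg
MEIS1-g3 guide: aaaaagcgtcacaaaaagcgTGG
SOX5 downstream site of MEIS1-g3: aaaaagAgGcaTaaaaGgcgggg
SOX5 upstream site of MEIS1-g3: aaaaGgcgtcacCaGaagcCagg
SOX2 site of MEIS1-g3: aaaaagGgtcacaaaaTTTgtgg

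Counted from 1 at the 5′ end of the guide, the SOX5 site of MEIS2-g5 carries T8G, G9A, T10A and T16G and lies at chr12:23658390-23658412 on the minus strand, 24.0 kb downstream of SOX5. For MEIS1-g3, the downstream SOX5 site (C7A, T9G, C12T and A17G) lies at chr12:23645732-23645754 on the minus strand, 36.7 kb from the gene, and the upstream site (A5G, A13C, A15G and G20C) at chr12:24760644-24760666 on the plus strand, 45.2 kb from it. The SOX2 site (C7G, A17T, G18T and C19T) lies at chr3:181412503-181412525 on the plus strand, 17.2 kb upstream of SOX2. SOX2 and SOX5 were not called in MEIS1-KO, where this guide was used.

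Knockout of MEIS1 gave smaller estimates. None of the 10 SOX genes was called by edgeR or by DESeq2, beside 1.46% of all genes by edgeR, and 2 of 10 (SOX4 and SOX11) had an unadjusted p under 0.05, beside 11.6% of all genes. Fold changes were negative for 8 of 10, with a median of -0.18 against 0.00 over all genes, and the summed level was 87.9% of that of ctrl-KO. SOX11 ranged from 214.6 over 224.0 to 236.2 CPM and SOX1 from 85.0 over 92.5 to 98.8 CPM. All libraries of both genes lay below all controls, beside 0.625% of genes lying lower without overlap. Their log2 fold changes were -0.21 (SE 0.07, edgeR adjusted p = 0.118) for SOX11 and -0.17 (SE 0.09, edgeR adjusted p = 0.48) for SOX1. SOX11 was called when only the MEIS1-KO and ctrl-KO libraries were fitted. SOX2 ranged from 236.3 over 267.3 to 297.5 CPM, with -0.18 and a 95% interval from -0.39 to 0.03, and SOX4 from 160.5 over 176.4 to 199.8 CPM, with -0.20 (edgeR adjusted p = 0.228).

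The knockouts were set against each other directly, since both share ctrl-KO. MEIS1-KO and MEIS2-KO differed in none of the 10 SOX genes by edgeR or DESeq2, beside 0.0152% of all genes by edgeR, and SOX5 alone had an unadjusted p under 0.05. The largest estimate was that of SOX1, 0.16 higher in MEIS1-KO on the log2 scale, with a 95% interval from -0.03 to 0.34. The call of SOX1, SOX4, SOX5 and SOX11 in MEIS2-KO and not in MEIS1-KO is therefore not a tested difference between the knockouts.

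Levels of other cell markers moved beside the SOX genes in the knockouts. The 5 measured neural crest and mesenchyme markers summed to 140.2 to 170.1 CPM in ctrl-KO, 165.2 to 262.3 in MEIS1-KO and 181.2 to 246.6 in MEIS2-KO. Of these 5, COL1A1, a collagen of mesenchymal cells, was higher in both knockouts (0.82 in MEIS1-KO, edgeR adjusted p = 0.0408, and 1.06 in MEIS2-KO, edgeR adjusted p = 0.00114), and SNAI2 was higher in MEIS2-KO (0.35, edgeR adjusted p = 0.00703). SOX10, a defining crest gene, had 0 counts in all libraries of the knockout system. The neural stem cell markers other than SOX1 and SOX2 had a median sum of 4191 CPM in ctrl-KO and 4878 in MEIS2-KO, in which VIM was higher and PAX6, FABP7 and HES5 were lower. The part of these markers in the SOX results was not tested.

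In MEIS1-OE, SOX6 and SOX1 fell by edgeR, 2 of 10 beside 9.10% of all genes called and 3.58% called lower. SOX6, the SOXD factor, ranged from 3.03 over 3.95 to 4.36 CPM in MEIS1-OE, with all libraries below the ctrl-OE range, beside 1.21% of all genes lying lower without overlap, and fell by 0.34 (SE 0.10, edgeR adjusted p = 0.0244). SOX1 ranged from 24.7 over 28.4 to 34.7 CPM, with 3 of 6 libraries below all controls, and fell by 0.31 (SE 0.10, edgeR adjusted p = 0.0342). The SOX1 call rested on ctrl-OE replicate 6, among others: without it the log2 fold change was -0.18 (edgeR adjusted p = 0.163), and that of SOX6 was -0.33 (edgeR adjusted p = 0.0433). SOX1 also lost its call without ctrl-OE replicate 1 (edgeR adjusted p = 0.0713), ctrl-OE replicate 4 (0.0567), MEIS1-OE replicate 2 (0.107), MEIS1-OE replicate 4 (0.092) or MEIS1-OE replicate 6 (0.0955). SOX6 lost its call without ctrl-OE replicate 4 (edgeR adjusted p = 0.0518), MEIS1-OE replicate 2 (0.0905) or MEIS1-OE replicate 4 (0.0681). When only the MEIS1-OE and ctrl-OE libraries were fitted, neither was called. Neural crest and mesenchyme markers moved in the same comparison, with a median sum of 217.7 CPM in MEIS1-OE (176.6 to 236.1) and 159.3 CPM in ctrl-OE (145.5 to 234.5). Of the 5, SNAI2 (0.44, edgeR adjusted p = 0.000496) and PDGFRB (0.30, edgeR adjusted p = 0.00548) were higher, also without ctrl-OE replicate 6. Their part in the SOX results was not tested.

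The other 8 SOX genes did not pass in MEIS1-OE. The median of the 10 log2 fold changes was -0.06, against 0.00 over all genes, and -0.00 without ctrl-OE replicate 6. SOX2 ranged from 86.4 over 109.7 to 137.5 CPM, inside the spread of its controls except for 1 library below them, with a log2 fold change of -0.03 (95% interval from -0.24 to 0.18), and 0.11 without ctrl-OE replicate 6. SOX11 ranged from 122.7 over 136.8 to 168.0 CPM, with an estimate of 0.12 (edgeR adjusted p = 0.319), and 0.18 without ctrl-OE replicate 6. SOX3, at 2.03 over 2.27 to 3.37 CPM, had an estimate of -0.63 (edgeR adjusted p = 0.144), and -0.22 without ctrl-OE replicate 6. SOX21, at 12.2 over 16.5 to 22.4 CPM, had an estimate of -0.33 (edgeR adjusted p = 0.342), and -0.02 without that library.

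Activation of MEIS2 left all 10 SOX genes without a call by edgeR or DESeq2, beside 1.35% of all genes called by edgeR. An unadjusted p under 0.05 was reached by 4 of 10 (SOX1, SOX3, SOX8 and SOX9), beside 7.64% of all genes. The median log2 fold change was -0.16, against -0.01 over all genes, and -0.08 without ctrl-OE replicate 6. SOX9 ranged from 24.3 over 27.8 to 34.5 CPM, with 5 of 6 libraries below all controls and an estimate of -0.26 (edgeR adjusted p = 0.596), and SOX8 from 11.3 over 14.2 to 16.6 CPM, with 4 of 6 below and -0.22 (edgeR adjusted p = 0.566). For SOX2, at 100.5 over 122.6 to 138.1 CPM, the 95% interval ran from -0.15 to 0.27, and for SOX11, at 114.9 over 132.9 to 153.2 CPM, from -0.10 to 0.17. The summed SOX level was 100.5% of that of ctrl-OE in MEIS2-OE and 102.8% in MEIS1-OE.

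MEIS1-OE and MEIS2-OE, which share ctrl-OE, were also compared directly. None of the 10 SOX genes was called by edgeR, beside 7.75% of all genes, and DESeq2 called SOX8. The SOXE genes had the largest positive estimates, 0.30 for SOX8 (SE 0.10, edgeR adjusted p = 0.0534) with 5 of 6 MEIS1-OE libraries above all MEIS2-OE libraries, and 0.30 for SOX9 (SE 0.12, edgeR adjusted p = 0.14). SOX6 had the lowest, of -0.25 (edgeR adjusted p = 0.161). These 3 were the SOX genes with an unadjusted p under 0.05, beside 18.3% of all genes.

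The contrast of the study joins both directions of a MEIS gene, as the activation effect minus the knockout effect. For MEIS1, SOX11 was the SOX gene called, with 0.33 (SE 0.09, edgeR adjusted p = 0.0388), beside 3.48% of all genes, and neither its activation estimate of 0.12 nor its knockout estimate of -0.21 passed alone. The call was lost in 20 of 36 fits that each left out 1 library (edgeR adjusted p from 0.00574 to 0.099 over all 36) and when only the groups compared were fitted. The value of 0.00574 came without ctrl-OE replicate 6, where the contrast was 0.39. For MEIS2 none was called by edgeR, beside 2.57% of all genes, DESeq2 called SOX9, and 4 had an unadjusted p under 0.05 (SOX2, SOX4, SOX9 and SOX11), beside 15.1% of all genes. SOX9 had a MEIS2 contrast of -0.57 (SE 0.17, edgeR adjusted p = 0.0626), SOX11 one of 0.31 (SE 0.09, edgeR adjusted p = 0.0663) and SOX2 one of 0.36 (SE 0.15, edgeR adjusted p = 0.209). Without ctrl-OE replicate 6, SOX2 (0.49, edgeR adjusted p = 0.026) and SOX11 (0.37, edgeR adjusted p = 0.0159) were called in the MEIS2 contrast.

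The makeup of the SOX transcript pool was read as the share of each subgroup in the summed CPM per kilobase. Between the controls the balance lay further toward SOXE in ctrl-OE, where SOXE held 11.2% on average (7.91% to 14.8% over the libraries) against 2.98% in ctrl-KO, and 11.8% in ctrl-OE without replicate 6. SOXB1 held 48.8% in ctrl-OE and 56.4% in ctrl-KO, SOXB2 6.16% and 11.97%, SOXC 32.4% and 27.3%, and SOXD 1.48% and 1.30%. SOX9 amounted to 19.6% of SOX2 per kilobase in ctrl-OE (21.2% without replicate 6) and to 4.48% in ctrl-KO. Without replicate 6 the ctrl-OE shares of SOXB1, SOXB2, SOXC and SOXD were 48.1%, 5.55%, 33.04% and 1.54%. Among the knockouts, the SOXE share was 2.48% to 3.65% over the ctrl-KO libraries and 3.80% to 4.81% over those of MEIS2-KO, with no overlap. In MEIS1-KO it was 2.92% to 4.60%, which overlapped both. SOXB1 stayed at a mean of 56.4%, 56.6% and 56.3% in ctrl-KO, MEIS1-KO and MEIS2-KO. SOX9 relative to SOX2 likewise ran from 3.79% to 5.58% in ctrl-KO and from 6.21% to 7.81% in MEIS2-KO. These shares are descriptions and were given no test.

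**Figure D3:**
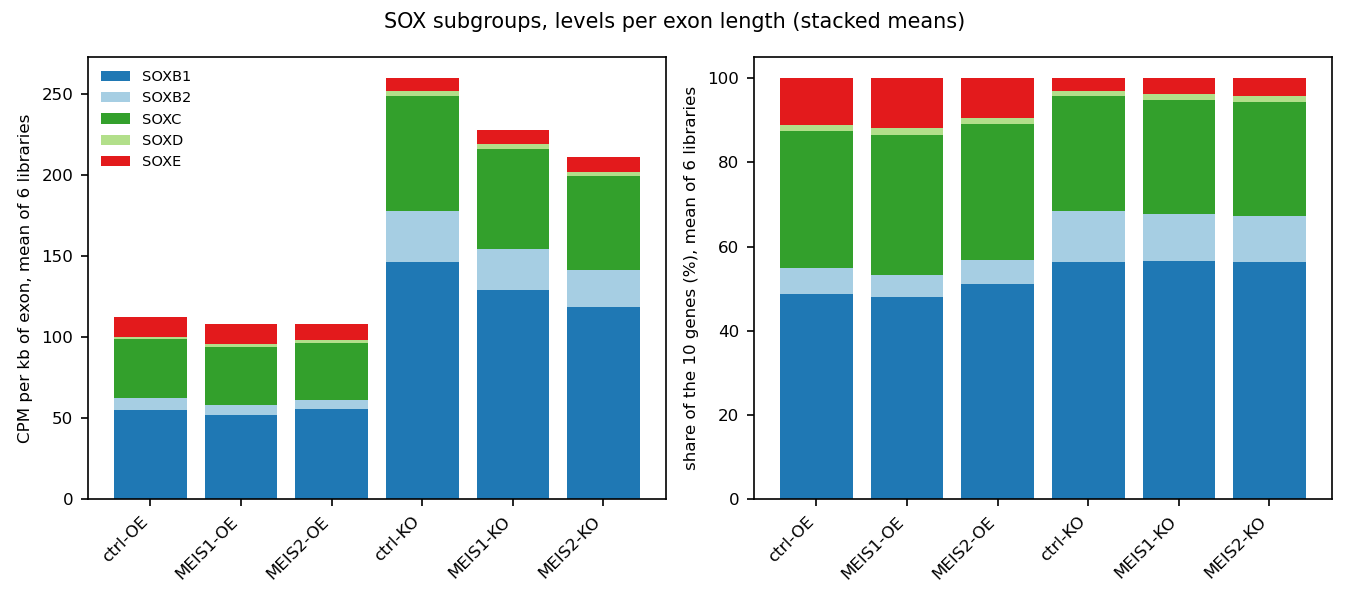
Summed level of the SOX subgroups per group, in CPM per kilobase of merged exons (means of 6 libraries, stacked) and as a percentage of the sum. The SOXE share averages 11.2% in ctrl-OE and 2.98% in ctrl-KO, and the SOXB1 share 48.8% and 56.4%.

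Genes whose levels most resembled those of a SOX gene over the 36 libraries were found by the root mean square difference of centred log2 CPM. SOX4 and SOX11 were close to each other (0.09), and POU3F2, a POU factor of neural progenitors, was close to both (0.08 from SOX11 and 0.10 from SOX4). SOX2 lay nearest to IRX2 (0.13) and SPSB4 (0.14), SOX1 to TMTC2 (0.11) and FHOD3 (0.11), and SOX5 to RNF165 (0.09) and CYYR1 (0.10). The likeness was looser for SOX3, with CXCR7 (0.25) and NR2F1 (0.28). SOX9 lay nearest to SPRY4 (0.15) and IKBKE (0.18), SOX8 to ARL2-SNX15 (0.14) and ATG9A (0.16), and SOX6 to VPS13B (0.14) and SESTD1 (0.14). All libraries entered these values, so the difference between the activation and knockout systems is part of each.

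Of 9 other SOX genes, 7 had enough counts to be tested. Between the controls, SOX10 and SOX18 were higher in ctrl-OE and SOX12 and SOX13 lower, 4 of 7 with a median of 0.67 (0.56 without replicate 6), beside 51.4% of all genes called. SOX10, a SOXE gene of neural crest and oligodendrocytes, had 3 to 10 counts in every ctrl-OE library and 0 in every ctrl-KO library, which is at least 9.71-fold higher against a floor of 3 counts over the group. The same held for MEIS1-OE against MEIS1-KO, at least 11.51-fold higher, and for MEIS2-OE against MEIS2-KO, at least 9.20-fold higher. SOX18, a gene of vascular endothelium, had 7 to 10 counts in the ctrl-OE libraries and 0 to 3 in those of ctrl-KO, a log2 difference of 2.16 (edgeR adjusted p = 5.46e-05). It fell in MEIS1-OE by 1.15 (edgeR adjusted p = 0.0339), and by 1.12 (edgeR adjusted p = 0.054) without ctrl-OE replicate 6. Without that library SOX12 (0.32, edgeR adjusted p = 0.0115) and SOX15 (0.84, edgeR adjusted p = 0.035) were called higher in MEIS1-OE instead. These were 2 higher and 0 lower of the 7 genes, beside 9.58% of all genes called. In MEIS2-KO, SOX13 fell by 0.24 (edgeR adjusted p = 0.0262), the only call among these 7 genes there.

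Known partners and targets of SOX2 were mostly lower in ctrl-OE as well. NES, PAX6, FABP7 and HES5 of this list are also among the neural stem cell markers above. Of 18 genes tested, 13 were lower and 1 was higher in ctrl-OE, with a median of -0.69, beside 23.9% of all genes lower and 27.5% higher, and without replicate 6 14 were lower with a median of -0.74. Among them were the POU factors POU3F4 (-1.90) and POU3F2 (-0.91), the Notch ligand JAG1 (-1.48) and the SHH effector GLI3 (-0.67). SHH itself, the higher gene, had at most 2 counts in any library of either control. In MEIS2-KO, 9 of 18 were lower with a median of -0.14, beside the 5.98% of all genes, and SOX2-OT fell as well (-0.36, edgeR adjusted p = 0.0287). The progenitor homeobox gene PAX6 fell in both knockouts, by 0.52 in MEIS2-KO (edgeR adjusted p = 0.000686) and by 0.42 in MEIS1-KO (edgeR adjusted p = 0.0178), where it was the gene of this list called. The Notch effector HES5 had the widest estimates on few counts: it fell in MEIS1-OE by 2.96 (edgeR adjusted p = 0.00236) and in MEIS2-OE by 2.79 (edgeR adjusted p = 0.0153). HES5 had 35 counts in ctrl-OE replicate 6, the highest of its group, and without that library its log2 fold changes were -2.25 (edgeR adjusted p = 0.0184) and -2.08 (edgeR adjusted p = 0.123).

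Targets of the SOXC and SOXE factors moved less evenly. Of 10 SOXC targets, 6 were lower in ctrl-OE than in ctrl-KO with a median of -0.35 (6 and -0.48 without replicate 6), beside 23.9% of all genes. Among them were the neuronal cytoskeleton genes MAP2 (-1.51), STMN1 (-0.75) and DCX (-1.14) and the homeobox gene PROX1 (-0.68). PROX1 rose in MEIS1-OE, from 3.59 to 4.40 CPM in ctrl-OE to 6.15 to 9.16 CPM, with no overlap and a log2 fold change of 0.84 (edgeR adjusted p = 1.26e-06), and its MEIS1 contrast was 1.07 (edgeR adjusted p = 2.91e-05). It was 1 of 2 SOXC targets called higher in MEIS1-OE, beside 5.52% of all genes, with a median of the 10 of 0.05. Without ctrl-OE replicate 6, 3 were called with a median of 0.11. DCX, at 4 to 31 counts per library, fell in MEIS2-KO by 0.997 (edgeR adjusted p = 0.0383). Of 13 SOXE targets tested, 5 were higher in ctrl-OE and 5 lower, with a median of 0.19, beside 27.5% and 23.9% of all genes, so the list did not share the direction of SOX8 and SOX9. Without replicate 6, 4 were higher and 5 lower with a median of 0.09. The higher genes included the cartilage collagen COL9A3 (1.47) and ZCCHC24 (0.91), and, on few counts, MMD2 and ACAN, and the lower ones COL9A1 (-0.84), APCDD1 (-0.87) and S100B (-0.98). ACAN, a cartilage proteoglycan, rose in MEIS1-OE from 0 to 3 counts to 2 to 13 counts per library (edgeR adjusted p = 0.0024).

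**Figure D4:**
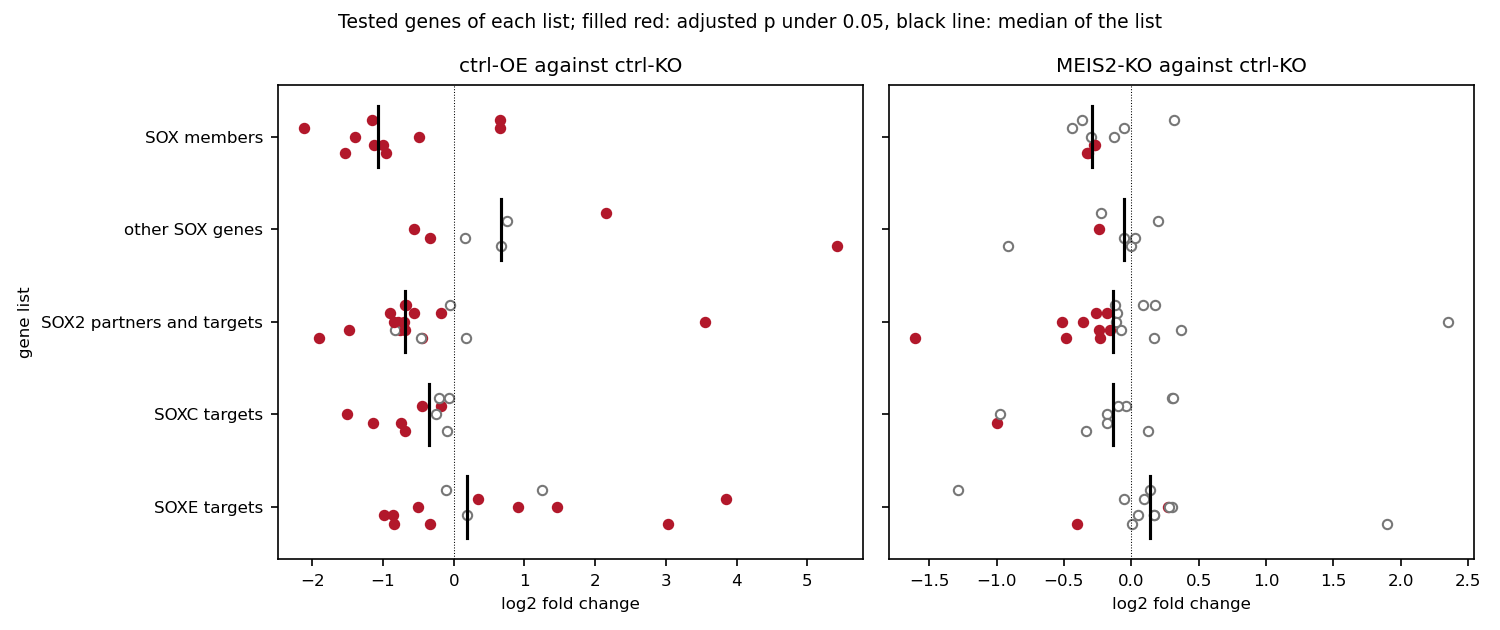
Log2 fold change (horizontal axis) of single genes in 5 gene lists (vertical axis) for ctrl-OE against ctrl-KO and for MEIS2-KO against ctrl-KO, with filled red points where the adjusted p is under 0.05 and a black line at the median of each list; the fitted value of SOX10, at 0 counts in ctrl-KO, depends on the prior count. In ctrl-OE against ctrl-KO the medians are -1.07 for the 10 SOX genes, -0.69 for SOX2 partners and targets and 0.19 for SOXE targets.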

How the data were processed

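Poly-A RNA of the 36 libraries (6 groups of 6) was sequenced, and the authors deposited raw counts of reads per gene, without normalization. The design text names STAR 2.4.2a, HTSeq 0.6.0 and DESeq2 1.34.0 on hg19, while the submitters' processing notes list STAR 2.7.0a and Trimmomatic 0.39. The annotation and the strand setting of the counting are not given in the sources used here. Every count column matched the label of a library (0 did not).

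A gene entered when its counts over the 36 libraries came to 10 or more (19689 of 28516), in 1 edgeR quasi-likelihood fit of 6 groups with TMM factors and no covariate. Tests were two-sided, p-values were adjusted over all genes tested, and genes were called under 0.05. SEs were derived from the F statistic. The common biological coefficient of variation was 0.0915. Without the TMM factors, the depth of 15429985 to 22940493 counts per library would put a gene at 1 CPM at 15 to 23 counts. The CPM given here include these factors, so the count that corresponds to 1 CPM can lie outside this range. The methods used DESeq2, which is an alternative here.

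All 10 SOX genes were named by rule. Genes of other lists were named when called with an absolute log2 fold change above 0.58, up to 4 per list and direction. SOX12, SOX13, SOX15, SOX2-OT, PAX6, FABP7, VIM, SNAI2, PDGFRB and the level markers were named in places outside this rule, after their values were seen. Lists of partners, targets and markers come from textbook knowledge. Members and lists were chosen with earlier results of these data known. Levels per kilobase used merged exons of a GRCh37 annotation. Likeness used 13463 genes with a mean of at least 1 CPM. The likeness of SOX21 is not reported here.

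Alternatives were DESeq2, RLE factors, filterByExpr, no filter, only the groups compared, a replicate block, each replicate number left out and the longest transcript for length. Leaving out single libraries was added after the data were seen. On simulated counts of MEIS1-KO against ctrl-KO for 19689 genes, edgeR recovered 32 of 50 genes changed 1.25-fold, 47 of 50 at 1.5-fold and 49 of 50 at 2-fold, with 4 false calls. R 4.3.3, edgeR 4.0.16, limma 3.58.1, DESeq2 1.42.0, Python 3.11.15, numpy 2.4.6, pandas 2.3.3 and matplotlib 3.10.9 were used.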

Additional observations from a re-analysis of the deposited data

Results flagged for a closer look

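In ctrl-OE, 3 SOX genes had a highest library far from the rest of its group, and it was replicate 6 each time. SOX2 reached 165.7 CPM there against 90.7 to 114.8 in the other libraries, SOX4 133.1 CPM against 94.6 to 105.3, and SOX21 41.4 CPM against 11.7 to 21.2, so that the gap to the next library was 0.68, 0.724 and 0.681 of the whole range, above the critical value of 0.625 for 6 samples. Over the 60 combinations of gene and group examined, chance alone gives about 3 such values. In the same library the 10 most abundant genes took 5.62% of counts against 6.21% to 6.42% in the others. Neural crest and mesenchyme markers summed to 234.5 CPM against 145.5 to 192.1, and neural stem cell markers to 3761 CPM against 2900 to 3278. The listed targets of SOX2, of the SOXC and of the SOXE factors also had their highest sums there. The part of these genes in the SOX values was not tested.

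For SOX11 the MEIS1 effects of activation (0.12) and knockout (-0.21) differed by 0.33 on the log2 scale (SE 0.09, edgeR adjusted p = 0.0388). Leaving out 1 library lost the call in 20 of 36 fits, while without ctrl-OE replicate 6 the difference was 0.39 (edgeR adjusted p = 0.00574).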

How the results depend on the processing

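Of the counts of SOX genes called, that of ctrl-OE against ctrl-KO (10), MEIS2-OE (0) and MEIS1-KO against MEIS2-KO (0) was the same under every alternative, and RLE factors and no filter moved none. Fitting only the groups compared gave 0 for MEIS1-OE (beside 6.28% of all genes), 1 for MEIS1-KO (1.02%) and 8 for MEIS2-KO (12.6%). It gave 0 for the MEIS1 contrast (2.81%) and 2 for the MEIS2 contrast (4.14%). The share of all genes called thus moved with the setting too, and it also moved when libraries were left out. DESeq2 gave 1 for the MEIS2 contrast (SOX9) and 1 for MEIS1-OE against MEIS2-OE (SOX8), and filterByExpr gave 1 for the latter. Leaving out 1 library gave 0 to 3 for MEIS1-OE, 4 to 6 for MEIS2-KO, 0 to 1 for the MEIS1 contrast, 0 to 2 for the MEIS2 contrast and 0 to 2 for MEIS1-OE against MEIS2-OE. Leaving out a replicate number gave 0 to 2, 3 to 6, 0 to 1, 0 to 2 and 0 to 2. In MEIS1-OE the sign of SOX2 turned, with log2 fold changes from -0.16 to 0.14, as did that of SOX21, from -0.55 to 0.033. The cause of these changes was not tested, beyond the fewer samples fitted. With the longest transcript as length, the SOXD share was 2.45% in ctrl-OE and 2.14% in ctrl-KO. Counts under about 10 per library, as for HES5, DCX, SOX10, SOX15 and SOX18, limit those estimates.

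Replicate numbers are shared by the groups, but the labels tie them to nothing. Libraries of the same number correlated at a mean r of 0.0993 in their deviations from the group means (46 of 90 pairs above 0.1), against -0.021 for other numbers, and 14 libraries were closest to their own number. The highest mean r of a number was 0.337, for number 6, which ctrl-OE replicate 6 also carries. What the libraries of number 6 share was not tested. With the replicate block, 1 SOX gene was called in MEIS1-KO (SOX11), 2 in the MEIS2 contrast (SOX9 and SOX11) and 1 in MEIS1-OE against MEIS2-OE (SOX8). The shares of all genes called there were 2.33%, 3.65% and 8.84%, against 1.46%, 2.57% and 7.75% without the block.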
